A study of Mus musculus with 11 samples.

Results

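The change that a Chd1 hairpin brought to gene expression was compared between cells with and without a hairpin against Map3k7, and the quantity reported is the difference of the 2 changes. It used 9 of the 11 libraries of the series, chosen by the line of cells named in their labels, with no measured value used. They are 3 libraries each of control line 4, shTak1 clone 1 and shTak1 clone 7. All were made from WFU3, a mouse prostate epithelial stem cell line grown in culture, and RNA was taken 24 hours after plating. Poly(A)-selected RNA was sequenced, which gives the level of each gene's transcripts.

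Of these 3 lines, each carried a GFP-marked lentivirus and, on top of it, a puromycin-selected lentivirus. Control line 4 carried a non-targeting hairpin in the first position. It was sequenced with a control hairpin in the second position at passage 52, with Chd1 construct 96526 at passage 52 and with Chd1 construct 96528 at passage 50. Clone 1 carried a hairpin against Map3k7, also called Tak1, and its library with the control hairpin and both of its libraries with the Chd1 constructs were at passage 49. Clone 7 carried the same kind of Map3k7 hairpin and was sequenced with the control hairpin at passage 47 and with either Chd1 construct at passage 48. Each of the 3 lines was a single clone picked after infection, so 1 clone stands for cells without the Map3k7 hairpin and 2 clones for cells with it. Control line 4 with the control hairpin was a single library, and it enters every value of the change in that line. The labels do not say that libraries came from separate cultures, so the p-values measure only the spread between these samples.

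CHD1 is a chromatin remodelling enzyme that binds histone H3 methylated at lysine 4 and moves or assembles nucleosomes at transcribed genes. MAP3K7, known as TAK1, is a kinase that passes signals from cytokine and TGF-beta receptors on to the NF-kB, JNK and p38 pathways. Both genes are lost in a share of human prostate cancers. Prostate epithelium has a basal layer, which holds on to the basement membrane through laminins and integrins, and a luminal layer joined by cadherins and desmosomes.

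Promoter sequence is shown for 3 genes at which the change differed between backgrounds, 2 at which it was more positive with the Map3k7 hairpin (Dsp and Lypd3) and 1 at which it was more negative (Mt1), so that the letters ahead of the gene can be seen. The sequences come from RefSeq promoters on GRCm38.p6, plus strand, and run at most from base 250 to base 1 before the RefSeq start. Capitals mark matches, on either strand, to GGGCGG, the core of the GC box that SP-family factors bind, or to TGCACNC or TGCGCNC, the core of the metal response element.
Dsp, chr13:38151044-38151293: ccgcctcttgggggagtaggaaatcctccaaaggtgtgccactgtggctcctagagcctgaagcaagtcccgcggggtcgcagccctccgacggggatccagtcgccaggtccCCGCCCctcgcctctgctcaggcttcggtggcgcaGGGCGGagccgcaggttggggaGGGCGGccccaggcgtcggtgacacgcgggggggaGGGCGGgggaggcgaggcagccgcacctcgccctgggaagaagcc
Lypd3, chr7:24636320-24636549: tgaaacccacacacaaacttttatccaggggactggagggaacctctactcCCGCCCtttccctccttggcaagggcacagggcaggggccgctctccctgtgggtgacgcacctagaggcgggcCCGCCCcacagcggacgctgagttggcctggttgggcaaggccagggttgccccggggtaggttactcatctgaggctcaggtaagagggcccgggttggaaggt
Mt1, chr8:94178839-94179081: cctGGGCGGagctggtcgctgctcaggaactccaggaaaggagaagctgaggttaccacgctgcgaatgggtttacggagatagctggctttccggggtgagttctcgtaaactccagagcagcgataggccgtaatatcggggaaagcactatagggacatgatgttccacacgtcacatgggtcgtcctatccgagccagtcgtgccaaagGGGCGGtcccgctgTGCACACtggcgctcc
The Dsp stretch held 4 GC box cores, that of Lypd3 2, and that of Mt1 2 together with 1 metal response core. Letters outside the printed stretches did not enter these counts, so the counts need not hold for a whole promoter. GC box cores stood in 32.7% of the 32851 promoters in the table and metal response cores in 21.4%. Of the 24 genes named by rule beside Chd1 and Map3k7, 20 had an entry, and 13 of these 20 held a GC box core, 7 a metal response core, 4 the letters TATAAA and 2 the AP-1 letters TGANTCA, against 12.4% and 6.75% of all promoters for the last 2. A named gene was counted when any of its promoter entries matched, while the percentages are shares of single entries. The counts and percentages are therefore not like for like. No AP-1 letters stood in the 3 stretches printed. A match is a run of letters, and binding was not measured.

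Total counts ran from 14132371 to 23163709 per library, and 14755 genes of 48299 were tested after a filter on low counts. Levels are given in counts-per-million (CPM), in which 3 counts correspond to 0.132 to 0.216 CPM, and changes as log2 values. CPM compares a gene between libraries and is not scaled for gene length. Libraries of bulk RNA do not separate a change in the share of a kind of cell from a change in RNA per cell. Markers that define other cell types were low: the endothelial Pecam1, Cdh5, Kdr and Tek, the neuroendocrine Chga, Chgb and Syp and the smooth muscle Myh11, Acta2, Cnn1 and Des reached at most 1.14 CPM in any library, and the immune Ptprc, Cd68, Csf1r and Lyz2 at most 2.89 CPM. Other genes on the wider lists for these cell types were higher. Ncam1 read 385 to 498 CPM in control line 4 and 40.8 to 127 CPM in the clones, Cd14 121 to 132 CPM and 8.68 to 14.5 CPM, Flt1 36.4 to 48.1 CPM and 21.8 to 33.6 CPM, and Smtn 71.6 to 147 CPM and 219 to 288 CPM. Of the defining prostate markers, the basal keratin Krt5 reached at most 1.92 CPM.

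The targeted genes were read first. Map3k7 (ENSMUSG00000028284.13, GRCm38 chromosome 4, 31964097 to 32023467) stood at 137, 137 and 138 CPM in control line 4 with the control hairpin, construct 96526 and construct 96528. In clone 1 the same order gave 42.7, 41.5 and 40.8 CPM, and in clone 7 it gave 39.9, 41.8 and 39.0 CPM. The Map3k7 transcript was thus lower in all 6 libraries of the shTak1 clones, and in each line its 3 libraries lay close together whichever second hairpin they carried.

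Chd1 (ENSMUSG00000023852.14, chromosome 17, 15704967 to 15772610) stood at 195 CPM in control line 4 with the control hairpin and at 145 and 149.7 CPM with constructs 96526 and 96528. In clone 1 it stood at 219 CPM with the control hairpin and at 197 and 161 CPM with the constructs, and in clone 7 at 237 CPM and at 193 and 189 CPM. Constructs 96526 and 96528 thus left 74.3% and 76.9% of the line's own level in control line 4, 89.8% and 73.6% in clone 1, and 81.2% and 79.5% in clone 7. The fitted log2 change was -0.40 ± 0.11 (SE) in control line 4 (adjusted p = 0.131) and -0.30 ± 0.08 in the shTak1 clones (adjusted p = 1), neither past the threshold of 0.05 of edgeR's quasi-likelihood test with Benjamini-Hochberg adjustment. Their difference was 0.10 ± 0.14, with a 95% interval from -0.21 to 0.41 (edgeR adjusted p = 0.815), so every Chd1 library was below the control library of its own line and the size of the reduction was not shown to differ between backgrounds.

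The change with the Chd1 hairpins differed between the backgrounds at 11 of the 14755 genes (0.0746%) at an edgeR adjusted p under 0.05, 7 with a more positive change in the shTak1 clones (0.0474%) and 4 with a more negative one (0.0271%). At an unadjusted p under 0.05 there were 1159 genes (7.85%) and 674 genes (4.57%). The positive genes included Lama3, Cdh3, Dsp, Lypd3, Krt8 and Fam83g. The 4 negative genes were Sema3d, Sorbs2, Heg1 and Mt1. At all 11 the change in control line 4 was itself called, and it was the larger of the 2 changes in absolute size. Since the difference and the change in control line 4 share that line's libraries, they are not independent of each other.

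The number of genes called rested on few libraries. Without a clone's control library, the change in the clones is fitted from the other clone alone. Leaving out 1 library at a time gave from 0 to 268 genes: 0 without clone 1 with construct 96526, without clone 7 with the control hairpin, or without control line 4 with construct 96528; 1 without clone 1 or clone 7 with construct 96528; 3 without clone 7 with construct 96526; 34 without clone 1 with the control hairpin; and 268 without control line 4 with construct 96526. With clone 1 alone for the Map3k7 background 0 genes passed, with clone 7 alone 7, none of them among the 11, and without the line in the model 0. All 11 genes kept their direction in each of 23 such settings and stayed called in 10 to 14 of them. The within-line values of all 11 did not overlap between backgrounds. Over all tested genes, the values of the clones lay above without overlap in 21.7% and below in 17.9%. Leaving out a library, a construct or a clone could therefore hardly reverse the direction of the 11 genes.

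**Figure D1:**
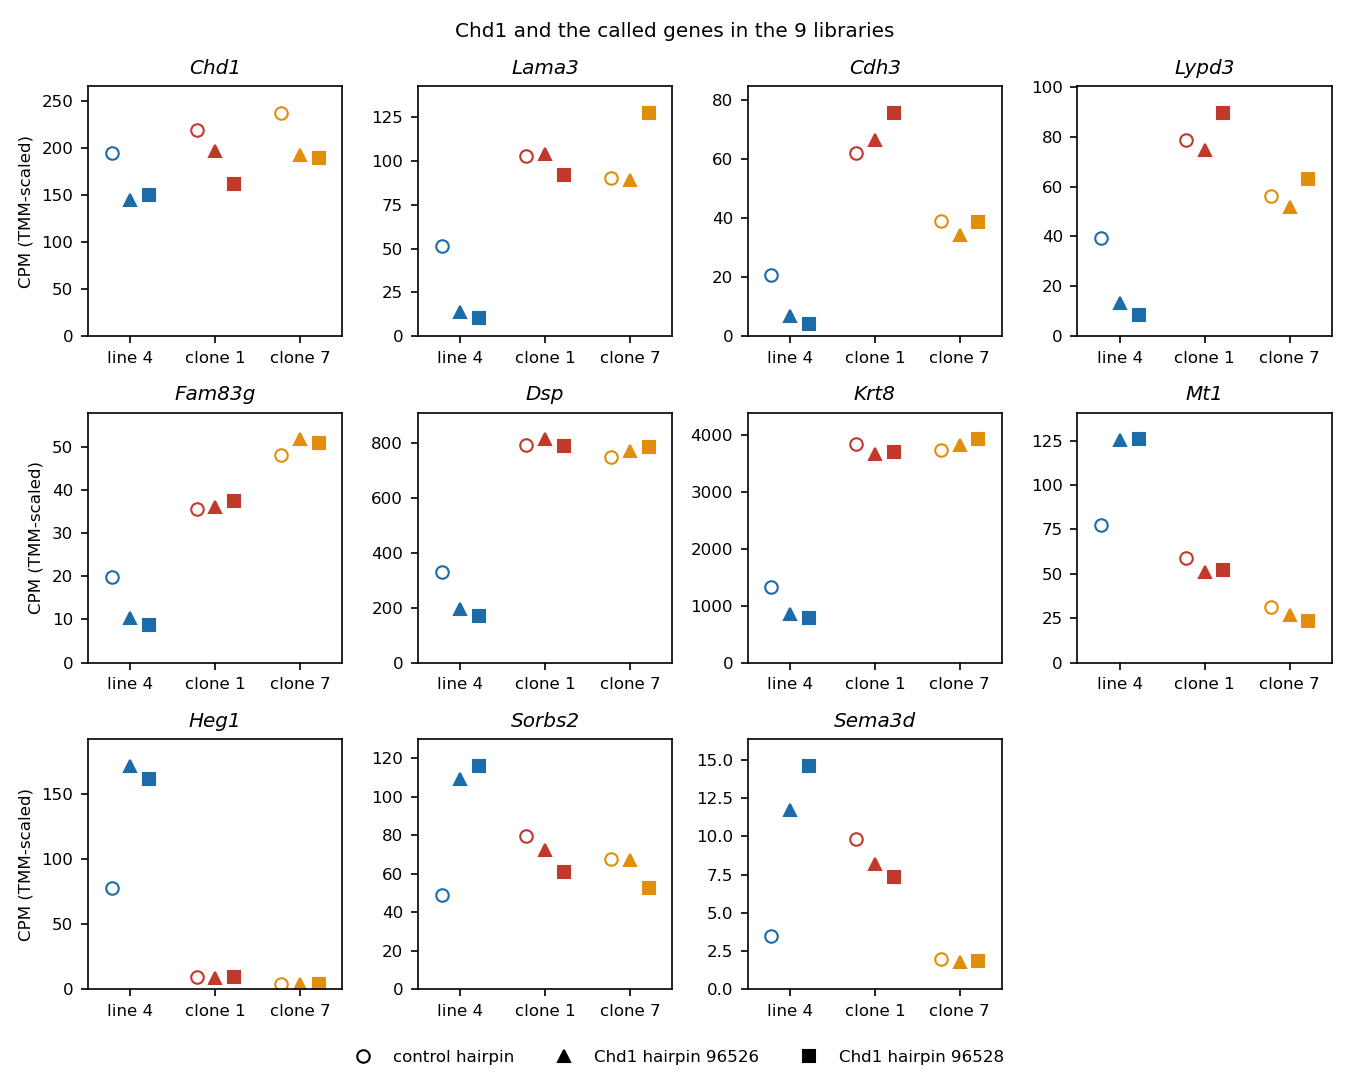
Level in CPM (TMM-scaled, each panel with its own axis from 0) of Chd1 and of 10 of the genes called for the difference, 1 point per library of control line 4, clone 1 and clone 7, with open circles for the control hairpin, triangles for construct 96526 and squares for construct 96528. At the called genes of control line 4 the libraries with a Chd1 construct sit apart from their control library, and in the shTak1 clones they sit near theirs.

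Lama3 and Lamb3 encode laminin chains that help to anchor epithelial cells to the basement membrane. Lama3 (ENSMUSG00000024421.16, chromosome 18, 12333819 to 12583013) stood at 51.5 CPM in control line 4 with the control hairpin and at 13.6 and 10.3 CPM with constructs 96526 and 96528. In clone 1 the order gave 103, 104 and 91.8 CPM, and in clone 7 it gave 90.4, 89.1 and 128 CPM. Both Chd1 libraries of control line 4 were low, and those of the clones lay on either side of their controls. The log2 change was -2.10 in control line 4 and 0.09 in the shTak1 clones (95% interval -0.24 to 0.43), a difference of 2.20 ± 0.27 (edgeR adjusted p = 0.0369). Lamb3 went from 108 to 69.9 and 69.1 CPM in control line 4 and ran from 121 to 156 CPM in the clones. Its difference of 0.77 ± 0.14 did not pass the test (edgeR adjusted p = 0.0792).

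Cdh3 encodes P-cadherin, the classical cadherin of basal epithelial cells (ENSMUSG00000061048.8, chromosome 8, 106510891 to 106557297). It was at 20.8 CPM in control line 4 with the control hairpin and at 6.62 and 4.09 CPM with the Chd1 constructs, while clone 1 gave 62.0, 66.2 and 75.6 CPM and clone 7 gave 38.9, 34.0 and 38.5 CPM. The fall in control line 4 (-1.96) had no counterpart of that size in the clones (0.05, 95% interval -0.24 to 0.35), and the difference was 2.01 ± 0.26 (edgeR adjusted p = 0.0369).

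Dsp encodes desmoplakin, which ties desmosomes to keratin filaments (ENSMUSG00000054889.10, chromosome 13, 38151294 to 38198577; promoter printed above). Its level was 329 CPM in control line 4 with the control hairpin and 195 and 171 CPM with the Chd1 constructs. Clone 1 gave 794, 813 and 789.7 CPM and clone 7 gave 749, 769 and 787 CPM, a spread of a few percent within each clone. The changes were -0.85 and 0.03, and the difference was 0.88 ± 0.11 (edgeR adjusted p = 0.0369).

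Krt8 encodes keratin 8, a keratin of simple and luminal epithelium (ENSMUSG00000049382.10, chromosome 15, 101996698 to 102004482). It stood at 1321, 849 and 782 CPM in control line 4, 3826, 3653 and 3689 CPM in clone 1 and 3735, 3813 and 3915 CPM in clone 7. The changes of -0.70 and -0.01 differed by 0.69 ± 0.09 (edgeR adjusted p = 0.0369), the smallest of the 11 differences.

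Lypd3, a membrane-anchored protein of stratified epithelia (ENSMUSG00000057454.5, chromosome 7, 24636550 to 24641118), went from 39.4 to 13.2 and 8.62 CPM in control line 4. It stood at 78.7, 74.5 and 89.6 CPM in clone 1 and at 56.2, 51.8 and 63.1 CPM in clone 7, so that construct 96526 gave the lowest and construct 96528 the highest value in both clones. The difference was 1.90 ± 0.25 (edgeR adjusted p = 0.0369). Fam83g, a scaffold protein that binds casein kinase 1 (ENSMUSG00000042377.8, chromosome 11, 61684091 to 61709951), went from 19.9 to 10.3 and 8.75 CPM in control line 4, against 35.5, 36.1 and 37.3 CPM in clone 1 and 48.1, 51.7 and 50.8 CPM in clone 7. Its difference was 1.13 ± 0.15 (edgeR adjusted p = 0.0369).

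Of the 4 genes with a more negative change in the shTak1 clones, Sema3d encodes a secreted guidance protein of the semaphorin family (ENSMUSG00000040254.11, chromosome 5, 12383385 to 12588948). It rose from 3.47 to 11.8 and 14.6 CPM in control line 4. In clone 1 it read 9.82, 8.19 and 7.36 CPM and in clone 7 it read 1.95, 1.76 and 1.83 CPM, so the 2 clones started from unequal levels. The changes were 1.92 and -0.27 (95% interval of the second -0.65 to 0.11), and the difference was -2.19 ± 0.29 (edgeR adjusted p = 0.0369).

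Sorbs2 encodes an adaptor protein of the actin cytoskeleton (ENSMUSG00000031626.17, chromosome 8, 45507788 to 45827906). It rose from 48.8 to 109 and 116 CPM in control line 4 and read 79.7, 72.1 and 61.0 CPM in clone 1 and 67.6, 67.2 and 52.6 CPM in clone 7. All 4 Chd1 libraries of the clones were below their own control, with construct 96528 the lower in each clone. The changes of 1.20 and -0.22 differed by -1.42 ± 0.19 (edgeR adjusted p = 0.0369).

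Heg1 encodes a transmembrane receptor known from heart and vessel formation (ENSMUSG00000075254.12, chromosome 16, 33684370 to 33771576). It rose from 77.7 to 171 and 161 CPM in control line 4, and stood at 9.05, 8.28 and 9.46 CPM in clone 1 and 4.33, 3.93 and 4.07 CPM in clone 7. The level in the clones was lower throughout, which leaves fewer counts behind the change there (-0.06, 95% interval -0.31 to 0.18). The difference was -1.16 ± 0.15 (edgeR adjusted p = 0.0369).

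Mt1 encodes a metallothionein, a small protein that binds zinc and copper (ENSMUSG00000031765.8, chromosome 8, 94179082 to 94180327). It rose from 77.2 to 125 and 126 CPM in control line 4 and read 58.7, 50.8 and 52.1 CPM in clone 1 and 31.5, 26.8 and 23.4 CPM in clone 7. All 4 Chd1 libraries of the clones were below their control. Mt1 was the only called gene whose change in the clones had a 95% interval that left out 0 (-0.25, from -0.43 to -0.08), although that change was not called on its own. The difference was -0.95 ± 0.13 (edgeR adjusted p = 0.0403).

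**Figure D2:**
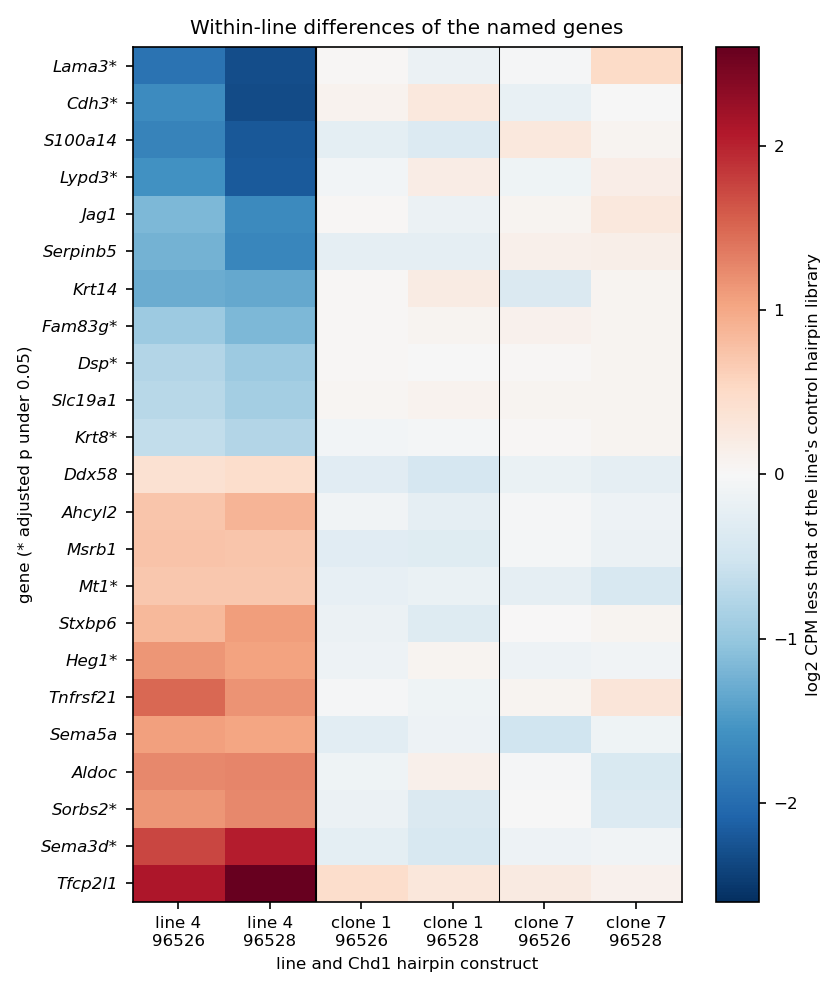
Within-line log2 CPM difference, each Chd1 library less the control library of its own line, as a colour for 23 of the genes named by rule (rows, stars for the 10 called) in the 6 Chd1 libraries (columns). The deepest colours are in the 2 columns of control line 4. They are blue for genes with a positive difference between backgrounds and red for the others. The 4 columns of the clones are mostly pale. Ddx58 is pale in control line 4 too (0.40 and 0.46, against -0.43 in clone 1 with construct 96528). Tfcp2l1 in control line 4 with construct 96528 (2.89) lies beyond the end of the colour scale.

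Further genes were named by rule to fill 12 in each direction and did not pass the test (edgeR adjusted p from 0.0509 to 0.0761). On the positive side they included Krt14, a basal keratin, with 1369, 561 and 543 CPM in control line 4 and 1631 to 2394 CPM in the clones (95% interval of the difference 0.86 to 1.74, edgeR adjusted p = 0.0592). Jag1, a Notch ligand, read 112, 50.2 and 35.4 CPM in control line 4 and 326 to 434 CPM in the clones (1.45 ± 0.22). The protease inhibitor family member Serpinb5, or maspin, read 50.2, 21.4 and 15.5 CPM in control line 4 and 109 to 129 CPM in the clones (1.39 ± 0.21). The differences of the calcium-binding protein gene S100a14 and the folate carrier gene Slc19a1 were 1.91 ± 0.27 and 0.87 ± 0.12.

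On the negative side the transcription factor gene Tfcp2l1 read 6.84, 29.6 and 51.4 CPM in control line 4 and 10.9 to 20.9 CPM in the clones (difference -2.30 ± 0.37, edgeR adjusted p = 0.064). Tnfrsf21, a death-domain receptor, read 88.6, 250.0 and 200.1 CPM in control line 4 and 24.8 to 34.9 CPM in the clones (-1.29 ± 0.19). Aldoc, a glycolytic aldolase, read 20.5, 49.0 and 49.4 CPM in control line 4 and 3.25 to 6.03 CPM in the clones (-1.34 ± 0.22). The others were Sema5a at -1.31, Stxbp6 at -1.07, Msrb1 at -0.94, Ahcyl2 at -0.92 and Ddx58, the RNA sensor RIG-I, at -0.72. At each of these genes the fitted change was larger in absolute size in control line 4 than in the clones, and the within-line values did not overlap, which the rule for naming them required.

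The same comparison was made over all genes called in control line 4. There 147 genes passed (0.996%), 52 higher (0.352%) and 95 lower (0.644%) with the Chd1 hairpins, and in the shTak1 clones no gene passed (0%) by edgeR, DESeq2 or limma voom. At an unadjusted p under 0.05 the shTak1 clones had 256 genes higher (1.74%) and 226 lower (1.53%), against 908 (6.15%) and 1385 (9.39%) in control line 4. The 95 genes called lower had a median log2 change of -0.95 in control line 4 and of 0.04 in the clones, where the middle 50% ran from -0.07 to 0.10, and 93 of them averaged at least 1 CPM in the clones. The 52 called higher had medians of 1.26 and 0.07, the middle 50% in the clones running from -0.12 to 0.29, and only 33 of them averaged 1 CPM there. Both sets were picked by their change in control line 4, which makes their medians larger there. No such set could be taken from the clones, so the medians of the backgrounds are not like for like. A call in one background and none in the other is no test of a difference, and the difference itself passed at the 11 genes above.

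**Figure D3:**
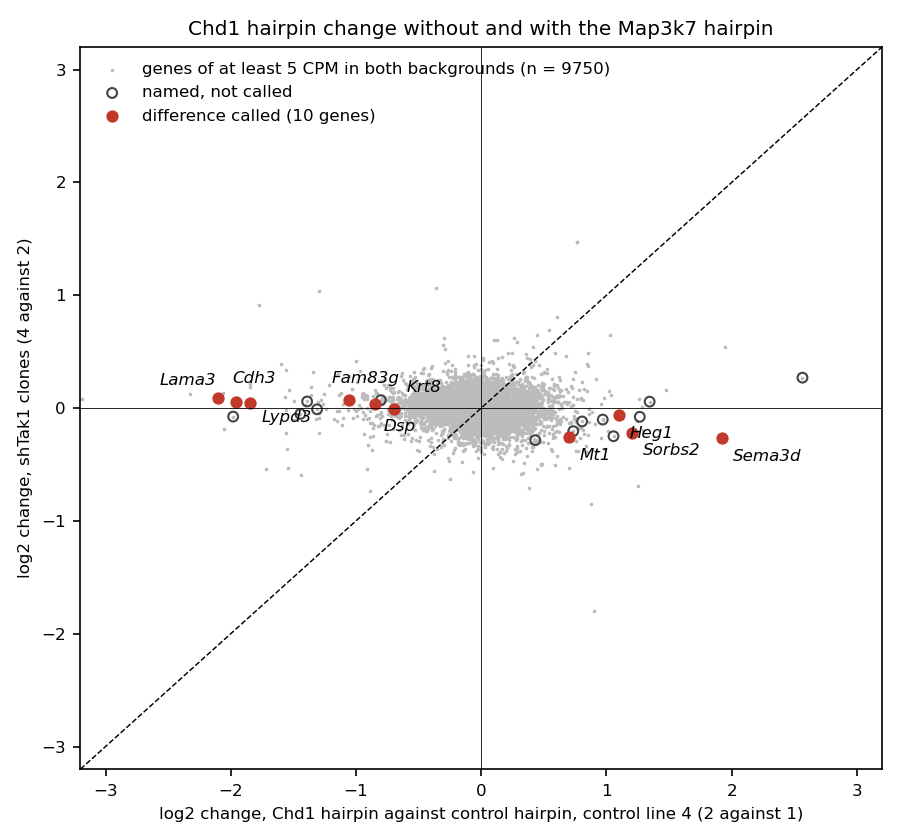
Log2 change with the Chd1 hairpins in the shTak1 clones (vertical) against control line 4 (horizontal) for 9750 genes of at least 5 CPM in both backgrounds, with 10 of the called genes as filled red points, named genes that were not called as open circles and equal changes as the dashed line; 1 gene lies outside the axes. The called genes spread along the horizontal axis and stay near 0 on the vertical one.

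The 3 lines were also set beside each other in the same form, 2 Chd1 libraries against 1 control library, over the 9750 genes with at least 5 CPM in both backgrounds. The standard deviation of the change over genes was 0.284 in control line 4, 0.149 in clone 1 and 0.247 in clone 7. At least a doubling was seen for 17, 2 and 12 genes, and at most a halving for 63, 2 and 13 genes, in the same order of lines. Clone 7 was thus nearer to control line 4 in the general size of change than clone 1 was. The 2 constructs of a line differed from each other by a median of 0.123, 0.0949 and 0.101 in absolute log2 value. Construct 96528 gave the larger median absolute change in each line, 0.182 against 0.128 in control line 4, 0.115 against 0.0761 in clone 1 and 0.120 against 0.1000 in clone 7.

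The changes of the 3 lines were close to unrelated across these genes. Pearson's r was 0.0078 between control line 4 and clone 1, -0.08 between control line 4 and clone 7, and -0.07 between the 2 clones, over genes, which are not independent replicates, and between lines that share no library. The 2 clones were thus no more alike in their change than either was like control line 4. Within a line the 2 constructs gave r of 0.768, 0.523 and 0.710, but these values share the control library of the line.

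**Figure D4:**
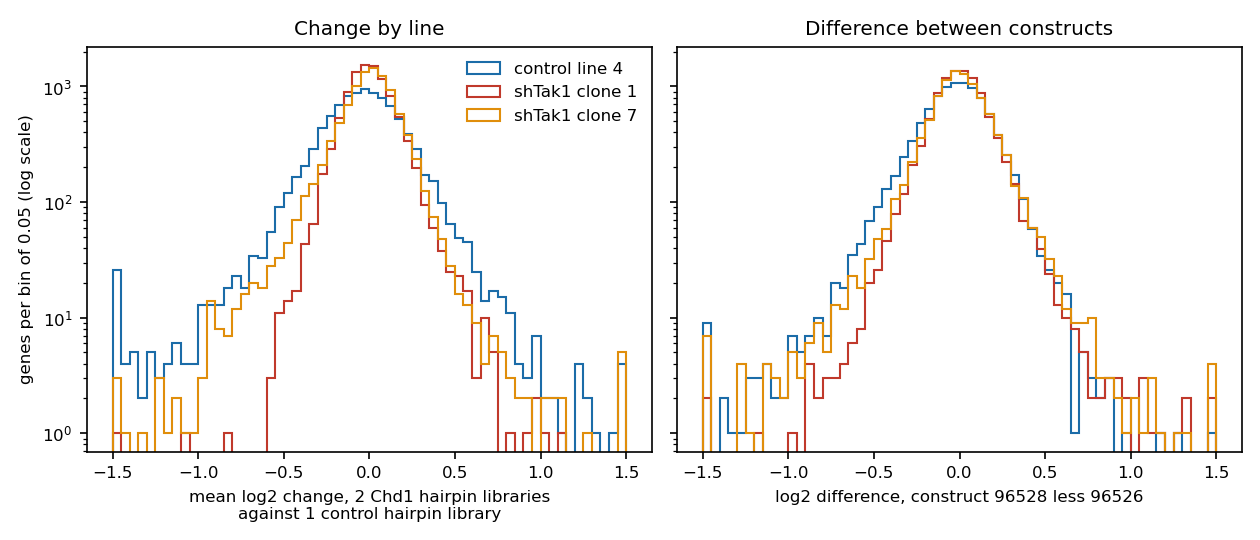
Number of genes (log axis, of 9750) by log2 change in each of the 3 lines, 2 Chd1 libraries against 1 control library (left), and by the log2 difference between the 2 constructs of a line (right); values beyond 1.5 on either side are set to 1.5. On the left control line 4 has the widest spread and clone 1 the narrowest.

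Gene lists were read by their counts and medians beside those of all genes, whose median difference was 0.02. At an unadjusted p under 0.05, 7.85% of all tested genes were more positive and 4.57% more negative. As a background for the counts of genes whose values do not overlap, 3198 of all tested genes (21.7%) had all 4 within-line values of the clones above both of control line 4, and 2647 (17.9%) had them below. Among 41 measured genes of epithelial junctions and identity, 2 were called, Cdh3 and Dsp, both more positive in the clones; 19 were more positive and 1 more negative at an unadjusted p under 0.05, and 25 lay above and 2 below without overlap. The list's median change was -0.49 in control line 4 and 0.01 in the clones, and its median difference was 0.48. With control line 5 or the unnumbered control in place of the control of line 4, that difference was 1.50. These 2 settings, here and for the lists below, set the Chd1 libraries of line 4 against a control of another line. Line and hairpin cannot be told apart in them, so they are no check of the result. Pkp1, the desmosomal plakophilin 1, read 249, 144 and 120.0 CPM in control line 4 and 288 to 391 CPM in the clones (difference 1.04 ± 0.19, edgeR adjusted p = 0.0761).

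Of 21 measured basement membrane genes, Lama3 among them, 6 were more positive and 1 more negative at an unadjusted p under 0.05. The median difference was 0.27, or 0.46 without control line 4 with construct 96526. It was 0.13 with control line 5 in place of the control of line 4, and 0.36 with the unnumbered control. Of 15 measured luminal markers 1 was called, Krt8, with 5 more positive and 0 more negative and a median of 0.48. That median moved to -0.01 when genes below a mean of 1 CPM in either background were left out, to 0.09 without clone 1 with the control hairpin and to 0.08 with clone 7 alone. The last 2 fits both take the change in the clones from clone 7, so they are nearly the same check. Krt7, a simple epithelial keratin, had a difference of 0.76 ± 0.17. None of 21 basal markers was called; 8 were more positive and 1 more negative, with a median of 0.38, or 0.60 without control line 4 with construct 96526. Krt6a, a stress keratin, read 59.5, 10.8 and 2.14 CPM in control line 4 and 119.9 to 212 CPM in the clones. RSEM divides reads shared with its close copies, so this value depends on that division.

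The next 2 lists leaned the same way with no member called. Among 35 genes of the JNK and AP-1 early response, the transcription factors and feedback genes that stress kinases switch on, 15 were more positive and 0 more negative at an unadjusted p under 0.05, and the median difference was 0.38. The AP-1 subunit gene Fosl1 read 77.4, 43.7 and 37.0 CPM in control line 4 and 64.6 to 96.9 CPM in the clones (1.20 ± 0.21, edgeR adjusted p = 0.0733), and Fosb read 9.48, 3.28 and 1.38 CPM against 40.1 to 84.7 CPM (2.11 ± 0.39). Among 58 genes of DNA replication and mitosis, 21 were more positive and 0 more negative, 32 lay above and 0 below without overlap, and the median difference was 0.25. That median was 0.02 with the unnumbered control in place of the control of line 4, and 0.20 with control line 5. For the early response list the same 2 settings gave 0.65 and 0.96. Plk1, a mitotic kinase, read 158, 109 and 103 CPM in control line 4, 162, 163 and 175 CPM in clone 1 and 142, 145 and 152 CPM in clone 7 (0.63 ± 0.11, edgeR adjusted p = 0.0733).

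In the Notch pathway 7 of 18 genes were more positive and 2 more negative at an unadjusted p under 0.05. The median difference was 0.27. It was 0.02 with the unnumbered control in place of the control of line 4, and 0.14 with control line 5. Only the 4 members of smallest p are given here, and none of them was called. The differences of the ligand genes Jag1 and Jag2 were 1.45 and 0.81, and that of the feedback gene Nrarp was 1.45. The receptor gene Notch1 read 336, 470.3 and 518 CPM in control line 4 and 305 to 382 CPM in the clones (-0.64 ± 0.13, edgeR adjusted p = 0.096).

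The lists on the negative side had no called member either. Of 49 interferon-stimulated genes, which cells make in answer to viral RNA and interferon, 0 were more positive and 12 more negative at an unadjusted p under 0.05, 23 lay below and 0 above without overlap, and the median change was 0.39 in control line 4 and -0.09 in the clones (median difference -0.47). Without clone 7 with the control hairpin the median difference was -0.27, and it was -0.27 with clone 1 alone. Both fits take the change in the clones from clone 1, so they are nearly the same check. With control line 5 in place of the control of line 4 it was -1.43, and with the unnumbered control -1.57. In clone 1 the list's median within-line value was 0 with either construct. A member with no counts in the clones has a value near 0 there and lies below whenever control line 4 rises. Levels in the clones were low for Gbp9, at 0.354 to 1.66 CPM against 19.3, 28.6 and 37.3 CPM in control line 4. Parp9 read 32.4, 45.8 and 51.5 CPM in control line 4 and 11.4 to 15.7 CPM in the clones (-0.80 ± 0.17, edgeR adjusted p = 0.125), and Bst2, the virus-tethering protein, read 14.8, 28.6 and 22.3 CPM against 4.39 to 5.79 CPM (-0.95 ± 0.24). Of 23 genes of MHC class I presentation 6 were more negative and 1 more positive (median -0.22), B2m, the light chain of the complex, among them at -0.54 ± 0.13. Of 38 hypoxia and glycolysis genes 9 were more negative and 0 more positive (median -0.18, or -0.10 without control line 4 with construct 96526 and -0.27 without clone 1 with the control hairpin).

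The 7 lists given next had medians near 0 in the full set of libraries. The JNK and AP-1 early response, a list that also stands close to the targeted genes, was not among them (median difference 0.38). The CHD family had 0 of 10 genes more positive and 1 more negative at an unadjusted p under 0.05, with a median of 0.04. The 26 measured members of the TAK1 pathway had 0 and 2 with a median of 0.03, and the 50 measured NF-kB targets 5 and 3 with a median of -0.03. Androgen response (62 genes, median 0.03), p53 targets (38 genes, median -0.03), homologous recombination (48 genes, median 0.07) and the TGF-beta response (32 genes, median -0.00) had no called member either. These 7 medians ran from -0.11 for NF-kB targets, without clone 7 with construct 96526, to 0.16 for homologous recombination, without control line 4 with construct 96528, when 1 library at a time was left out, and all but that of the TAK1 pathway changed sign in some of these fits. With control line 5 in place of the control of line 4 the CHD family median was -0.31, that of the TGF-beta response -0.35 and that of p53 targets 0.36.

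**Figure D5:**
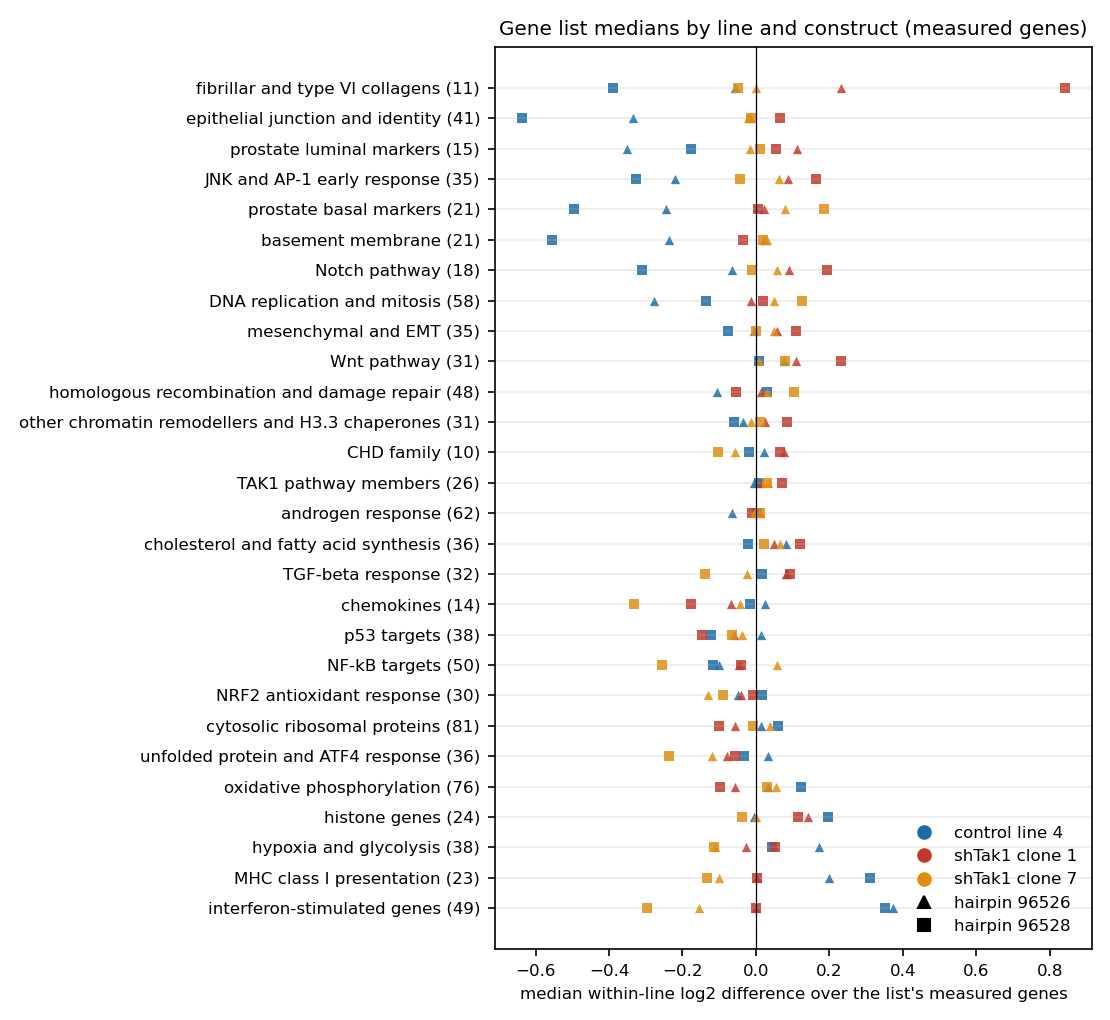
Median within-line log2 difference of each gene list with at least 10 measured genes (their number in brackets), 1 point per Chd1 library, coloured by line, with triangles for construct 96526 and squares for construct 96528. The epithelial list lies at -0.33 and -0.64 in control line 4 and the interferon list at 0.37 and 0.35, while the clones lie near 0 for the first and at or below 0 for the second.

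Markers of fibroblasts were read beside these lists. In control line 4 Col3a1, a fibrillar collagen chain, read 18.0, 90.5 and 86.8 CPM. Pdgfrb, a growth factor receptor of mesenchymal cells, read 11.4, 21.7 and 18.2 CPM in that line. Both were at or below 0.1 CPM in the 6 libraries of the clones. The 5 fibroblast markers summed to between 3.96 and 122 CPM over the 9 libraries, and Lum was at 0 in each. Pdgfra, another of the 5, read 11.2, 9.96 and 11.4 CPM in control line 4 and 3.90 to 8.80 CPM in the clones, and Dcn reached at most 0.252 CPM. Trp63, a basal transcription factor, read 12.1, 18.4 and 20.8 CPM in control line 4 and at most 2.33 CPM in the clones. Whether these genes have a part in the epithelial and interferon differences was not tested.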

How the data were processed

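The authors deposited expected counts per gene, that is, estimated read counts that need not be whole, 1 column per library; per the submitters' processing notes, the tools were Bowtie2, RSEM 1.3.1 and limma on GRCm38. Neither the annotation nor a strand setting is named there, so genes overlapping on opposite strands cannot be told apart. A deposited table of normalized log2 values was not used.

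Rounded counts went into edgeR 4.0.16 in R 4.3.3: TMM normalization, filterByExpr by group (minimum count 10, minimum total 15), and a quasi-likelihood F-test of a model holding 3 line means and 1 Chd1 hairpin change per background, which leaves 4 residual degrees of freedom. Genes filtered out held up to 0.0657% of the counts of any library. The contrast was the change in the shTak1 clones less that in control line 4, and p-values were adjusted by Benjamini-Hochberg over 14755 genes (threshold 0.05). Standard errors were taken from the F statistic, and intervals are 95%. Within-line values are log2 CPM with a prior count of 2. The code was tested on simulated data.

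The line is the block because libraries of a clone descend from the same cells: over genes, the clone 1 less clone 7 value had r = 0.550 when shMap3k7 was set against shDouble libraries. Libraries with different constructs of 1 line differed beyond counting noise (mean chi-square per gene of 8.46 to 9.93).

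Genes were named by rule: Chd1 and Map3k7; up to 12 called genes in each direction averaging 5 CPM or more in one background and 1 CPM or more in the other and with within-line values that do not overlap, filled up by smallest p; and up to 4 members of each of 33 gene lists. Predicted genes and symbols turned into dates (18 of those tested) were passed over. The comparison, members and lists were chosen with earlier results of these data known. Gene coordinates come from GENCODE M21, matched by symbol for 14581 genes. Alternatives were other normalization, filters, tools, constructs, clones, sets of libraries and leaving out each library. Control line 5 and the unnumbered control entered only these. Some results, among them 1 called gene, are not reported here; the counts include them.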

Additional observations from a re-analysis of the deposited data

Results flagged for a closer look

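Of the genes called, 10 are listed here because the change with the Chd1 hairpins differed between backgrounds by edgeR's quasi-likelihood test of the difference itself. The log2 differences were 2.20 for Lama3, 2.01 for Cdh3, 1.90 for Lypd3, 1.13 for Fam83g, 0.88 for Dsp and 0.69 for Krt8, and -2.19 for Sema3d, -1.42 for Sorbs2, -1.16 for Heg1 and -0.95 for Mt1.

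Among the 4 within-line values of the shTak1 clones, a library far from the other 3 was looked for in 114 genes and found in 4. These were Rpl10 in clone 7 with construct 96526 (0.14), Chac1 in clone 7 with construct 96526 (0.17), Higd1a in clone 7 with construct 96528 (0.0675) and Rad51d in clone 1 with construct 96528 (-0.0038). Chance alone marks about 1 in 20 such groups, and 3 of the 4 libraries named are of clone 7.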

How the results depend on the processing

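The 11 genes called for the difference compare with 0 with no replicate block, 0 with all 11 libraries and no replicate block, 0 by limma voom, 0 with clone 1 only, 7 with clone 7 only, 30 with the construct as a further term, 39 with construct 96526 only, 190 with construct 96528 only, 180 by DESeq2 and 201 with no filter on low counts; leaving out each library in turn gave 0 to 268. At an unadjusted p under 0.05 the fit with no replicate block still had 497 genes more positive and 239 more negative, and limma voom 1184 and 732. The 147 genes called in control line 4 became 0 with no replicate block, 417 with all 11 libraries and no replicate block, 481 with no filter, 365 by DESeq2, 416 with construct 96528 only and 71 with clone 7 only, and 28 to 476 with a library left out. The 0 of the shTak1 clones became 2 with construct 96526 only, 6 with construct 96528 only, 1 with clone 1 only, 3 with clone 7 only, and 0 to 2 with a library left out. The causes were not tested.

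The 2 replacements of the single control library of line 4 were chosen after seeing the data. With control line 5 in its place 3254 genes were called for the difference and 4747 for the change in that background, and with the unnumbered control 3017 and 4573; line and hairpin cannot be told apart there. All 24 named genes besides Chd1 and Map3k7 kept their direction in the 23 settings, these included. Naming required within-line values that do not overlap, so leaving out libraries could hardly reverse these genes. Reversals were small or came with a replaced control: Chd1 (0.10) with construct 96528 only, -0.0051; Map3k7 (-0.02) 0.0115 with construct 96526 only, 0.0074 with clone 7 only and 0.0104 with control line 5, and from -0.0577 to 0.0179 with a library left out, the last without clone 1 with the control hairpin; H2-K1 0.11 with all 11 libraries and no replicate block and 0.88 with control line 5; Cbr3 -0.87, Chac1 0.32 and Col6a2 -2.33 with control line 5; and Sat1 0.39 with the unnumbered control. Leaving out the control library of line 4 was not possible, since it is the only one of its kind. Depth limits the change of genes near 0 in the clones, where 3 counts are 0.132 to 0.216 CPM.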

Other observations

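Lcn2, a secreted iron-carrier protein of epithelial defence, read 1175, 2169 and 2211 CPM in control line 4 with the control hairpin, construct 96526 and construct 96528. In clone 7 it read 30.0, 10.6 and 1.95 CPM and in clone 1 it read 1.42, 0.88 and 1.78 CPM, so that its values in clone 7 and clone 1 did not move alike. The difference of -2.70 ± 0.71 did not pass the test (edgeR adjusted p = 0.185). Col6a2, a chain of type VI collagen, read 107, 95.4 and 112 CPM in control line 4 and at most 1.36 CPM in the clones, and its difference of 1.22 ± 0.35 (edgeR adjusted p = 0.21) did not pass either.

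The urokinase gene Plau, which encodes a secreted protease that activates plasmin, read 159, 88.5 and 80.6 CPM in control line 4, 270.2, 259.7 and 253 CPM in clone 1 and 242, 308 and 266 CPM in clone 7 (difference 0.99 ± 0.16, edgeR adjusted p = 0.064). By chromosome the median difference ran from -0.09 on X to 0.10 on chromosome 19, and the 11 called genes lay on 9 chromosomes, 3 of them on chromosome 8.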
